A study of Danio rerio with 4 samples.

Results

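The genes described here encode proteins of the spliceosome and the heterogeneous nuclear ribonucleoproteins (hnRNPs) of the zebrafish. They were found by their symbol in the platform annotation, taking each probe set with a single gene symbol that begins with sf3a, sf3b, snrp, srsf, sfrs, prpf, hnrnp, hnrp, u2af or sfpq. The rule found 85 probe sets of 67 genes among the 15617 probe sets of the Affymetrix zebrafish genome array, where several short probes together report 1 transcript. They fell into 7 sub-groups by prefix, with 11 snrp, 12 sf3a and sf3b, 3 u2af, 14 prpf, 16 srsf, 28 hnrnp and hnrp probe sets, and 1 of sfpq. No symbol began with sfrs.

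RNA from embryonic brain was hybridised for 3 samples of foggy mutants and for 1 wild-type sample. Spt5, the product of the foggy gene (supt5h), travels with RNA polymerase II and regulates its elongation. The age given for the wild-type sample was 36 h, and the label of each mutant sample gives 36 with no unit, read here as hours. The labels name neither the foggy allele, the background strain nor the number of embryos behind a sample, and they do not say whether the 3 mutant samples came from separate clutches or extractions. Values below are intensities as deposited, and differences are foggy minus wild type on a log2 scale after adding a pseudocount.

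Splicing removes introns from transcripts while RNA polymerase II is often still elongating them. Small nuclear ribonucleoproteins (snRNPs), most of them built on a ring of Sm proteins around a small RNA, assemble on the intron in order. The U1 snRNP binds the upstream splice site. U2AF and the U2 snRNP with its SF3a and SF3b complexes bind near the downstream one. The tri-snRNP with its Prp proteins then joins and is rearranged into the active machine. SR proteins, named for their arginine and serine repeats, mostly favour the use of nearby splice sites, while hnRNPs coat nascent RNA and often repress exons. In the developing brain, changes in these regulators accompany many neuron-specific splicing choices.

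The supt5h probe set read 258, 245 and 254 in the foggy arrays, against 210 in the wild-type array, and did not pass the test (adjusted p = 0.137). Brain markers from a list of 24 genes (23 on the array) had summed intensities of 20851 to 21616 in foggy and 22013 in wild type. The summed markers of other tissues were lower in foggy. Red blood cell markers (8 of 10 genes on the array) summed to 2290 to 2441 in foggy and 10593 in wild type, and skeletal muscle markers (13 of 19 genes) to 2327 to 2474 in foggy and 6619 in wild type. Cartilage markers (6 of 8 genes) summed to 1522 to 1568 in foggy and 2923 in wild type, lens markers (4 of 9) to 2938 to 3140 in foggy and 5095 in wild type, photoreceptor markers (5 of 8) to 418 to 449 in foggy and 1071 in wild type, and pigment cell markers (6 of 8) to 1417 to 1504 in foggy and 2734 in wild type. Of the tested probe sets of these lists, limma called 13 of 15 lower for muscle, 7 of 7 for red cells, 4 of 5 for cartilage, 4 of 4 for lens, 4 of 5 for photoreceptors and 6 of 7 for pigment cells, while 4 brain probe sets of 31 were higher and 3 lower. No list had a probe set at 0. Fewer cells of a type and less RNA per cell cannot be told apart in such samples, and the part of these tissues in the splicing gene values was not tested.

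Few splicing and hnRNP probe sets passed the test between foggy and wild-type brain. Of the 85 probe sets, 83 were bright enough to be tested, covering 66 genes, and those of snrpd2 and a second probe set of sf3b4 were too dim. In foggy, 1 of 2 probe sets of the U2 snRNP gene sf3b1 rose, and 1 probe set each of the hnRNP genes hnrnpa0a and hnrnpd fell. The other 80 did not pass limma's test at an adjusted p under 0.05. Among all 10851 tested probe sets 5.5% were called, 2.36% higher and 3.14% lower in foggy. The 3 calls are 3.61% of the 83 tested, which is no larger a share than that of the whole array. Of the 55 that lay among the brightest 25% of tested probe sets, 1.82% were called higher and 1.82% lower. Over all tested probe sets of that brightness, 5.57% were called higher and 5.38% lower. At an unadjusted p under 0.05, 13 of the 83 were higher (15.7%) and 5 lower (6.02%), beside 11.7% and 8.89% of all tested probe sets. These unadjusted shares were not matched for brightness. The rule of size, at which all 3 foggy arrays lie at least 1 log2 unit from the wild-type array in the same direction, took 0.59% of all tested probe sets (64) and 0 of the 83.

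Differences were small in size. They ran from -0.70 to +0.44, with 39 of 83 (47.0%) within 0.1 log2 units of 0, against 37.8% of all tested probe sets. A size of 0.3 or more was reached by 4 of them (4.82%), against 16.5% of all. These shares by size were not matched for brightness. The median difference was +0.06, and +0.03, +0.05 and +0.05 in foggy arrays 1, 2 and 3 taken singly, against +0.02 over all tested probe sets. These probe sets were bright: their median signal lay at the 90.0th percentile of the tested probe sets and 55 (66.3%) lay among the brightest 25%. Over these 55 the median difference was +0.044, against +0.035 over all tested probe sets of that brightness. The median standard error of a difference over the 83 was 0.0762, against 0.129 over all tested probe sets. The smallest difference called anywhere on the array was 0.23 in size.

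**Figure D1:**
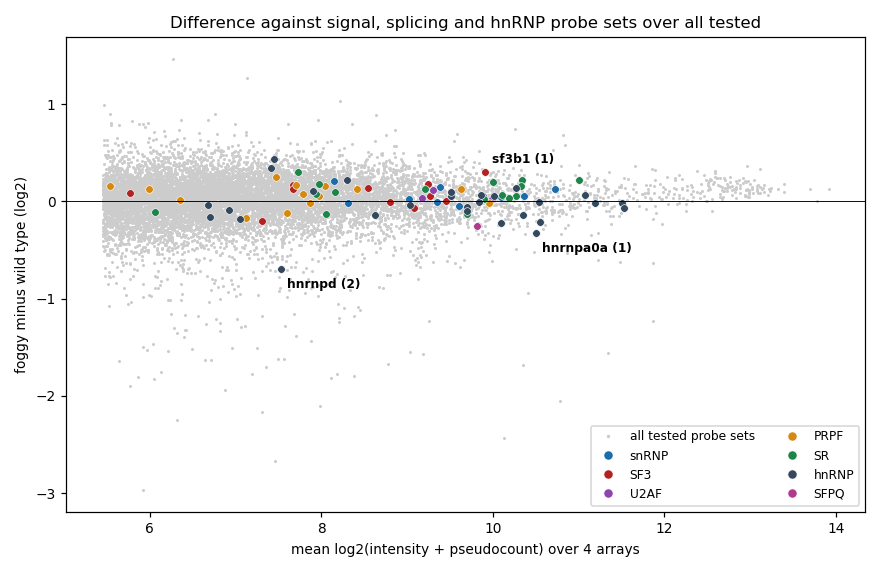
Difference between foggy and wild type (vertical axis, log2) against the mean log2(intensity + pseudocount) of the 4 arrays (horizontal axis) for 10851 tested probe sets in grey and 83 splicing and hnRNP probe sets in colour by sub-group. The coloured points lie between -0.70 and +0.44, mostly at the bright end, and the 3 called probe sets are labelled with their brightness rank within the gene in brackets.

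All 3 foggy arrays lay above the wild-type array at 37 of the 83 probe sets (44.6%) and below it at 17 (20.5%), and at 29 the foggy arrays lay on both sides. Over all tested probe sets these shares were 36.2% above and 28.4% below. Of the 55 splicing and hnRNP probe sets among the brightest 25%, 45.5% lay above and 21.8% below, beside 44.2% and 29.97% of all tested probe sets of that brightness. Under cyclic loess scaling the counts came to 29 above and 23 below. Counted by probe set, the SR and hnRNP sub-groups leaned to different sides. Of 16 SR probe sets 12 lay above and 2 below, while of 28 hnRNP probe sets 7 lay above and 12 below. Under quantile, cyclic loess and median scaling 9 to 12 of the SR probe sets lay above and 2 below, and 5 to 8 of the hnRNP probe sets lay above and 11 to 15 below. These counts are descriptions, since all of them rest on the same wild-type array and the sub-groups were not tested against each other. They count probe sets, not genes: the 16 SR probe sets cover 13 genes and the 28 hnRNP probe sets 20. Probe sets of srsf1b, hnrnpa0a, hnrnpa0b and hnrnpub stand on both sides, some above and some below. With each gene read by its brightest tested probe set, the median difference was +0.09 for SR and -0.01 for hnRNP genes.

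**Figure D2:**
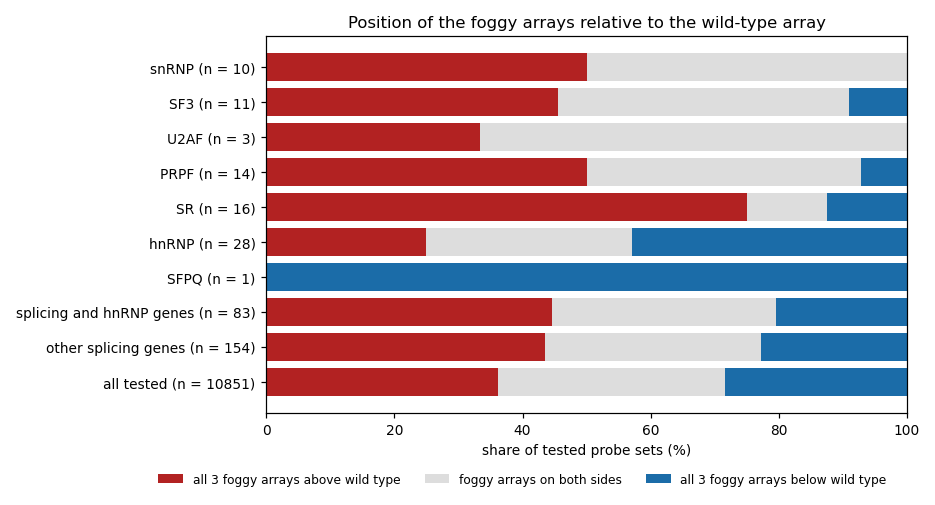
Share of tested probe sets (horizontal axis, percent) at which all 3 foggy arrays lay above the wild-type array, on both sides of it or below it, for each sub-group, for all splicing and hnRNP probe sets, for other splicing genes and for all tested probe sets (rows, with the number tested). The SR bar has 12 of 16 above, and the hnRNP bar has 12 of 28 below.

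The genes of the Sm proteins, which form the ring of most major snRNPs, were nearly level between the groups. The snrpf probe set was the brightest of the snrp group, with 1750, 1691 and 1711 in the foggy arrays, against 1575 in the wild-type array. All 3 foggy arrays lay above the wild type, but the difference of +0.12 (SE 0.0593) did not pass (adjusted p = 0.274). Of the 7 tested Sm genes 0 were called, with differences between -0.02 and +0.12, and 0 passed an unadjusted p of 0.05. The snrpe probe set read 1103, 1092 and 1068 in foggy, against 1055 in wild type, a narrow gap on one side. The snrpd3l probe set, for a protein like Sm D3, read 911, 937 and 978 in foggy, against 904 in wild type, also all above. At snrpb, snrpd1, snrpd3 and snrpg the foggy arrays lay on both sides of the wild type.

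The 3 genes with the snrp prefix for proteins specific to the U1 or U2 snRNP were not called. The snrpb2 gene encodes a U2 protein that binds the U2 RNA, and its probe set read 285, 278 and 274 in foggy, against 239 in wild type. Its difference of +0.21 (SE 0.0831, adjusted p = 0.186) was the highest of the snrp group. The snrpa gene, for the U1 A protein, read 679, 657 and 673 in foggy, against 603 in wild type (+0.15, adjusted p = 0.245). The snrpc gene, for the U1 C protein that steadies the contact with the upstream splice site, read 797, 716 and 753 in foggy, against 782 in wild type. Its foggy arrays fell on both sides of the wild type, and its difference of -0.05 (SE 0.0744) was the lowest of the group. The median over 10 tested snrp probe sets was +0.05, and 1 of them (snrpb2) passed an unadjusted p of 0.05.

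SF3b1, the largest SF3b subunit, holds the branch point of the intron and is mutated in several human blood disorders. The brightest sf3b1 probe set read 985, 999 and 1017 in foggy, against 811 in wild type. The foggy arrays spanned 31 intensity units and lay well above the wild type. This probe set rose 1.23-fold, a difference of +0.30 (SE 0.0622, adjusted p = 0.0230). The second sf3b1 probe set read 651, 588 and 596 in foggy, against 539 in wild type, again all above, its difference of +0.17 staying uncalled (SE 0.0775, adjusted p = 0.238). The call was lost without foggy array 3 (adjusted p = 0.0855), when limma used no variance trend (0.195) and when the wild-type SD was set to 2 times that of the mutants (0.731).

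Other subunits of the same complexes were not called. In SF3a, sf3a1 read 193, 202 and 185 in foggy, against 171 in wild type (+0.17, adjusted p = 0.374), and the brighter sf3a2 probe set read 365, 364 and 372 in foggy, against 331 in wild type (+0.14, adjusted p = 0.329). Both had all foggy arrays above the wild type, while sf3a3 (393, 465 and 435 in foggy, 431 in wild type) did not. In SF3b, sf3b2 read 208, 187 and 182 in foggy, against 175 in wild type (+0.13), and sf3b3 read 540, 531 and 486 in foggy, against 545 in wild type (-0.07). The tested sf3b4 probe set, for a subunit that contacts RNA beside the branch point, had the lowest difference of the group, -0.20 (SE 0.164, adjusted p = 0.546), with a wide spread of 131, 116 and 168 in foggy, against 160 in wild type. The dimmer sf3a2 probe set had foggy arrays on both sides of its wild-type reading of 36.3, and its difference of +0.08 (SE 0.204) turned to -0.03 without foggy array 3. At sf3b5 and sf3b6 the foggy arrays lay on both sides of the wild type. Over 11 tested SF3 probe sets the median was +0.08, with 1 called and 2 at an unadjusted p under 0.05, both of sf3b1.

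The U2AF proteins recognise the end of the intron, the small subunit its last bases and the large subunit the pyrimidine tract. The small-subunit gene u2af1 read 551, 570 and 570 in foggy, against 552 in wild type (+0.03, SE 0.0685). The brighter of the 2 probe sets of the large-subunit gene u2af2b read 1035, 981 and 1009 in foggy, against 990 in wild type (+0.03), and the other read 628, 648 and 607 in foggy, against 579 in wild type (+0.11, adjusted p = 0.403). None of the 3 was called by limma, and 0 had an unadjusted p under 0.05. The brighter u2af2b probe set turned below 0 under cyclic loess scaling.

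The prpf genes encode Prp proteins, among them those of the tri-snRNP and of later complexes. Prp8, at the catalytic centre of the spliceosome, was read by 3 probe sets of prpf8. The brightest read 961, 990 and 972 in foggy, against 988 in wild type, a difference of -0.02 (SE 0.0619). The next read 115, 118 and 124 in foggy, against 136 in wild type (-0.17, SE 0.114, adjusted p = 0.430), the lowest difference of the group. The dimmest read 46.7, 47.3 and 52.5 in foggy, against 43.4 in wild type (+0.13), so the fainter probe sets of this gene had the foggy arrays on opposite sides of the wild type.

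Among the other tri-snRNP genes the highest difference was that of prpf3, which helps hold U4 and U6 together. Its brighter probe set read 160, 178 and 172 in foggy, against 140 in wild type (+0.25, SE 0.106, adjusted p = 0.211), and the other read 20.7, 34.8 and 41.4 in foggy, against 26.4 in wild type, on both sides. The bridging factor gene prpf6 read 367, 325 and 307 in foggy, against 303 in wild type (+0.13), and prpf31, known for human retinal degeneration, read 142, 185 and 198 in foggy, against 190 in wild type (-0.12). At prpf6 all foggy arrays lay above the wild type, with a gap about as wide as their SD of 30.6, and at prpf31 they lay on both sides. The gene prpf19, a ubiquitin ligase of the complex that activates the spliceosome, read 814, 784 and 780 in foggy, against 727 in wild type (+0.12, SE 0.0653, adjusted p = 0.329), with all foggy arrays above. The splicing factor gene prpf39, for a U1-associated protein, read 289, 236 and 246 in foggy, against 228 in wild type (+0.16), and prpf38b read 205, 189 and 206 in foggy, against 175 in wild type (+0.17), again all above. At prpf38a (+0.01), prpf4 (-0.02) and the kinase gene prpf4ba (+0.06) foggy arrays lay on both sides of the wild type, and prpf38a turned below 0 under cyclic loess and without foggy array 1 or 2. Over 14 prpf probe sets 0 were called by limma, 1 had an unadjusted p under 0.05 and the median was +0.10.

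SR protein genes mostly read a little higher in foggy, and 0 of 16 probe sets were called by limma. At an unadjusted p under 0.05, 5 (31.3%) were higher and 0 lower, beside 11.7% and 8.89% of all tested probe sets. These SR probe sets were brighter than the array as a whole, with a median mean log2 of 9.80 against 7.03. Shares at an unadjusted p matched for brightness were not computed. The brightest, srsf5b, read 2099, 2146 and 2136 in foggy, against 1820 in wild type. The difference of +0.22 (SE 0.0580) stood just outside the threshold (adjusted p = 0.0560). It passed in 2 of 10 alternative fits, under quantile normalization (0.0235) and without foggy array 1. The latter setting raised the number of calls over the whole array as well. Its duplicate srsf5a read 1314, 1302 and 1313 in foggy, against 1176 in wild type (+0.15, adjusted p = 0.174). In both genes the 3 foggy arrays were close together and above the wild type.

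The highest difference of the SR group was that of srsf10b, for an SR-like protein that represses splicing when dephosphorylated. It read 239, 204 and 185 in foggy, against 166 in wild type (+0.30, SE 0.128, adjusted p = 0.221), with a wide spread between the foggy arrays. The srsf11 gene read 1397, 1283 and 1320 in foggy, against 1141 in wild type (+0.22, SE 0.0672, adjusted p = 0.0937), and srsf2a read 1053, 1051 and 1041 in foggy, against 910 in wild type (+0.20, SE 0.0608, adjusted p = 0.0929). Each passed in 1 of 10 alternative fits, the one without foggy array 1, which raised the number of calls over the whole array as well. SRSF2, the protein of srsf2a, is also known in mammals for helping paused RNA polymerase II into elongation. The duplicate srsf2b read 268, 269 and 285 in foggy, against 256 in wild type (+0.09).

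Lower readings in the SR group were few. The lowest difference was that of srsf3b, for the smallest classical SR protein, which also takes part in mRNA export. It read 778, 806 and 801 in foggy, against 873 in wild type (-0.13, SE 0.0640, adjusted p = 0.275). The 2 probe sets of srsf1b disagreed in side. One read 255, 250 and 228 in foggy, against 268 in wild type (-0.13), and the other read 247, 248 and 234 in foggy, against 213 in wild type (+0.18, SE 0.0886). The duplicate srsf1a read 1196, 1269 and 1247 in foggy, against 1189 in wild type (+0.06). Differences of 0.03 to 0.13 were found at srsf4, srsf6b, srsf7a and the 2 brighter probe sets of srsf6a, and the third srsf6a probe set lay at -0.11 with foggy arrays on both sides.

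**Figure D3:**
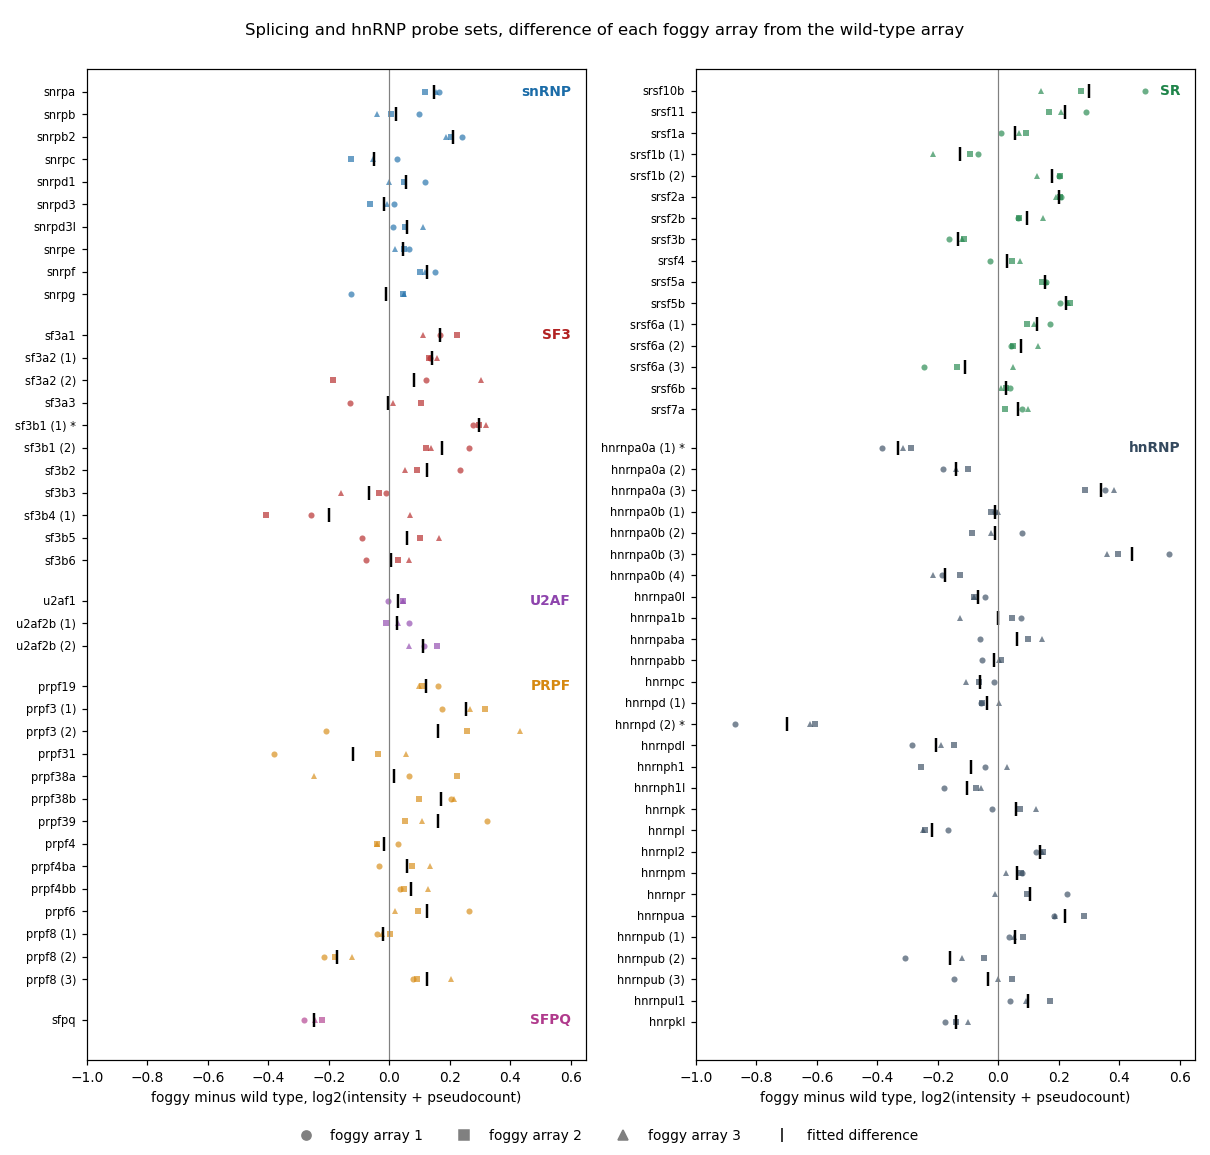
Difference of each foggy array from the wild-type array (symbols, log2(intensity + pseudocount)) and the fitted difference (black tick) at each of the 83 tested probe sets, by sub-group. Numbers in brackets rank the probe sets of a gene by signal and an asterisk marks the 3 called by limma: sf3b1 (1) to the right of 0, hnrnpa0a (1) and hnrnpd (2) to the left.

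The hnRNP genes held both falls. The hnrnpd gene encodes AUF1, a protein that binds AU-rich RNA and is known for controlling mRNA decay. Its dimmer probe set read 129, 159 and 157 in foggy, against 250 in wild type, so each foggy array lay far below the wild type. It fell 1.62-fold, a difference of -0.70 (SE 0.124, adjusted p = 0.0108), the farthest from 0 among the 83 probe sets. The brighter hnrnpd probe set read 498, 499 and 520 in foggy, against 519 in wild type, a difference of -0.04 (SE 0.0706, adjusted p = 0.832). The call thus rests on 1 of 2 probe sets. Which transcript each probe set reads was not analysed here.

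The hnrnpa0a gene encodes an A/B-type hnRNP related to hnRNP A1, known in mammals for binding AU-rich RNA. Its brightest probe set read 1303, 1396 and 1369 in foggy, against 1709 in wild type, all far below. It fell 1.26-fold, a difference of -0.33 (SE 0.0641, adjusted p = 0.0167). The next read 1219, 1294 and 1258 in foggy, against 1387 in wild type (-0.14, SE 0.0631, adjusted p = 0.243), also all below. The dimmest went the other way, with 166, 157 and 169 in foggy, against 126 in wild type (+0.34, SE 0.104, adjusted p = 0.0960). Both hnRNP calls were lost when limma used no variance trend (adjusted p = 0.0898 for hnrnpd and 0.181 for hnrnpa0a) and when the wild-type SD was set to 2 times that of the mutants (0.522 and 0.647). They held without any one foggy array.

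At the duplicate hnrnpa0b, which was not called, the brighter probe sets were nearly level and the dimmer ones lay on opposite sides of the wild type. The brightest of its 4 probe sets read 2889, 2867 and 2910 in foggy, against 2914 in wild type, a difference of -0.01 (SE 0.0572). The second read 954, 850 and 888 in foggy, against 903 in wild type, on both sides. The third read 190, 167 and 162 in foggy, against 123 in wild type, and its +0.44 (SE 0.115, adjusted p = 0.0573) was the highest difference of the 83. It passed in 2 of 10 alternative fits, without foggy array 1 and without foggy array 3. The former setting raised the number of calls over the whole array as well. The fourth read 111, 117 and 109 in foggy, against 129 in wild type (-0.18, adjusted p = 0.431). The related hnrnpa0l was read by a probe set of the kind whose probes match several transcripts, and read 2962, 2894 and 2888 in foggy, against 3058 in wild type (-0.07, adjusted p = 0.551).

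**Figure D4:**
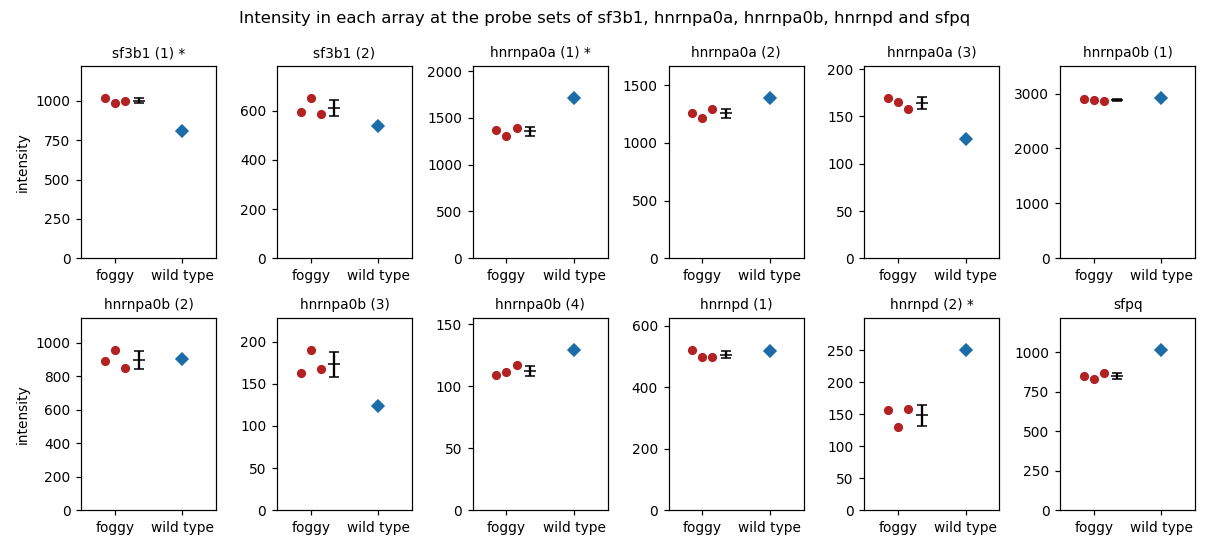
Intensity (vertical axis, from 0) in the 3 foggy arrays (circles, with mean and SD) and the wild-type array (diamond) at the probe sets of sf3b1, hnrnpa0a, hnrnpa0b, hnrnpd and sfpq, ranked by signal within a gene. An asterisk marks the called probe sets, and the dimmest hnrnpa0a probe set has foggy above wild type (157 to 169 against 126) where the brightest has it below (1303 to 1396 against 1709).

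Several other hnRNP genes read below the wild type without being called. The hnrnpl gene, whose protein binds CA repeats, read 1076, 1020 and 1014 in foggy, against 1209 in wild type (-0.22, SE 0.0647, adjusted p = 0.0847). This probe set passed in 2 of 10 alternative fits, under cyclic loess and without foggy array 1. The related hnrnpl2 lay on the other side, with 1233, 1255 and 1252 in foggy, against 1131 in wild type (+0.14, adjusted p = 0.224). The hnrnpdl gene, a relative of hnrnpd, read 1352, 1492 and 1445 in foggy, against 1652 in wild type (-0.21, SE 0.0693, adjusted p = 0.120). Both hnrnpl2 and hnrnpdl passed in 1 of 10 alternative fits, the one without foggy array 1, which raised the number of calls over the whole array as well. The hnRNP K-like gene hnrpkl read 361, 371 and 382 in foggy, against 411 in wild type (-0.14, adjusted p = 0.340), and hnrnpc, whose protein packages nascent RNA, read 831, 802 and 779 in foggy, against 840 in wild type (-0.06). At hnrnpk, for a protein binding C-rich RNA, the foggy arrays (681, 726 and 755) lay on both sides of the wild type (691).

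Genes of the hnRNP U type encode large nuclear proteins that bind RNA and chromatin, and none of their probe sets was called. The hnrnpua probe set read 304, 326 and 304 in foggy, against 265 in wild type (+0.22, SE 0.0841, adjusted p = 0.173), and hnrnpul1 read 695, 763 and 721 in foggy, against 677 in wild type (+0.10). The brightest hnrnpub probe set read 1010, 1044 and 1021 in foggy, against 985 in wild type (+0.06), and 2 dimmer ones lay at -0.16, with all foggy arrays below, and at -0.03. At hnrnpm the readings were 938, 935 and 903 in foggy, against 887 in wild type (+0.06). The bright A/B-type genes hnrnpa1b (1555, 1522 and 1351 in foggy, 1476 in wild type), hnrnpaba (1986, 2222 and 2293 in foggy, 2073 in wild type) and hnrnpabb (2265, 2363 and 2354 in foggy, 2350 in wild type) had foggy arrays on both sides. The hnRNP H gene hnrnph1l, whose family binds G runs, read 758, 816 and 825 in foggy, against 860 in wild type (-0.10). Over the 28 hnRNP probe sets the median was -0.02, with 4 higher and 4 lower at an unadjusted p under 0.05 (14.3% each, beside 11.7% and 8.89% of all tested probe sets). They too were brighter than the array as a whole (median mean log2 of 9.70 against 7.03), and the shares were not matched for brightness.

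SFPQ, a nuclear protein of paraspeckles that pairs with NONO and is needed for long genes and motor axons, was read by 1 probe set. It read 830, 866 and 852 in foggy, against 1013 in wild type, with every foggy array well below. The difference of -0.25 (SE 0.0637), 1.19-fold lower, stood just outside the threshold (adjusted p = 0.0523). It passed in 3 of 10 alternative fits: under quantile normalization (0.0404), under cyclic loess (0.0306) and without foggy array 1. Leaving out foggy array 1 raised the number of calls over the whole array as well.

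Probe sets of the same gene did not always agree in side, here or over the whole array. Differences shared 1 sign across the probe sets of 5 of the 11 genes read more than once (45.5%), against 60.1% of 1055 such genes on the whole array. At 5 of the 11 genes (45.5%), namely hnrnpa0a, hnrnpa0b, hnrnpub, prpf8 and srsf1b, one probe set had all foggy arrays above the wild type and another all below, against 11.6% of the 1055. Genes with more probe sets have more chance of such a pair. The shares were matched neither for the number of probe sets nor for brightness, and were not tested against each other. The whole-genome duplication of fishes left pairs of many of these genes. Of 8 such pairs read by their brightest probe sets, 6 had both copies on the same side: hnrnpua with hnrnpub, prpf4ba with prpf4bb (+0.06 and +0.07), srsf2a with srsf2b, srsf5a with srsf5b and srsf6a with srsf6b above 0, and hnrnpa0a with hnrnpa0b below. The hnrnpaba and hnrnpabb pair (+0.06 and -0.01) and the srsf1a and srsf1b pair lay on both sides. Some of these sides rest on little: hnrnpa0b lay at -0.01 and at 0.0078 under quantile normalization, and srsf6b at +0.03 and at -0.0056 under cyclic loess. The share of duplicate pairs on the same side over the whole array was not computed. The srsf1b probe set not used here was nearly as bright and lay at +0.18, on the side of srsf1a. Copies of a pair are similar in sequence, and whether probes of one took up the other was not tested.

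Splicing genes outside the prefixes were read from a separate list of 169 names, of which 125 genes were on the array and 154 probe sets were tested. Of these, 8 rose and 1 fell (5.19% and 0.649%, beside 2.36% and 3.14% of all tested probe sets). Another 145 did not pass, and the median difference was +0.04. These probe sets were brighter than the array as a whole, with a median mean log2 of 8.03 against 7.03. Among the brightest 25% of all tested probe sets, 5.57% were called higher and 5.38% lower. Shares matched for brightness were not computed for this list. The fall was that of elavl1a, for HuR, which stabilises AU-rich mRNA, with 721, 782 and 790 in foggy, against 999 in wild type (-0.38, SE 0.0726, adjusted p = 0.0154). The most strongly supported rise was that of pcbp2, a C-rich RNA-binding hnRNP, which read 953, 974 and 968 in foggy, against 731 in wild type (+0.39, SE 0.0621, adjusted p = 0.00569). In both genes every foggy array lay well to one side of the single wild-type reading, whose own spread is not known.

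The highest difference in that list was at celf3a, for a CELF splicing regulator known from brain, with 444, 623 and 479 in foggy, against 299 in wild type (+0.74, SE 0.147, adjusted p = 0.0195). The U4/U6 recycling factor sart3 read 355, 357 and 365 in foggy, against 277 in wild type (+0.35, adjusted p = 0.0268), and the SR protein kinase gene clk4a read 480, 503 and 522 in foggy, against 392 in wild type (+0.34, adjusted p = 0.0288). The remaining rises were ilf3a, for a double-stranded RNA-binding protein (+0.37, adjusted p = 0.0224), acin1a, for a protein of the exon junction (+0.41, 0.0306), rbm5, for an early spliceosome protein (+0.37, 0.0370), and khdrbs1a, for Sam68 (+0.33, 0.0391). The khdrbs1a call came from a probe set of the kind that may take up related sequences, and its 5 other tested probe sets lay between -0.10 and +0.28 with none called. A second acin1a probe set lay at -0.02. All 9 calls were lost when limma used no variance trend and when the wild-type SD was set to 2 times that of the mutants. Without foggy array 3, 4 of the 8 rises were still called, and 3 were when dim probe sets were kept.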

How the data were processed

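Linear intensity, 1 value per probe set and array, is what the authors deposited for the 4 arrays. How probes were summarised or background removed is not given in the sources used here. These values had equal means in the 4 arrays after trimming 2% at each end (150.03), so no further scaling was applied. A difference is therefore measured against the bulk of the array. Gene symbols were those of GEO's platform annotation. Of 15617 probe sets, 10802 had 1 symbol, 135 several and 4680 none here. All 67 member genes were found by gene number in the RefSeq table of assembly GRCz12tu, and 0 member symbols changed.

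Before log2, 16.3 intensity units were added as a pseudocount, the 20th percentile over the table. The 115 control probe sets and the 4651 with a mean log2 under the 30th percentile were left out. The other 10851 went through lmFit and eBayes with a variance trend (limma 3.58.1, R 4.3.3), two-sided, with Benjamini-Hochberg adjustment over all of them. Wild type having 1 array, spread was estimated in the 3 foggy arrays (2 residual degrees of freedom, 7.89 prior), taking wild type to vary as they do. Permuting 4 arrays gives no p under 0.25. Fold changes are on the log2(value + pseudocount) scale and understate those of dim genes. Since nothing says that the samples were of separate origin, p-values measure only sample-to-sample spread, possibly technical, and the number of arrays limits the precision. No pair of arrays was identical over the whole table. Data were also simulated from the same arrays, with 10851 probe sets tested. In them, 61 of 100 changes of 0.5 log2 units and 87 of 100 of 1 unit were recovered, with 13 false calls. The changed probe sets were drawn at random from all those tested, not from the brighter splicing and hnRNP ones. Recovery of changes smaller than 0.5 log2 units was not simulated. Its noise was drawn as independent normal values with the spreads that limma had fitted to the real arrays. The simulated wild-type array was given the same spread as the foggy arrays. The simulation therefore cannot check the fitted spreads or whether wild type varies as the foggy arrays do. Its false calls do not cover a failure of these assumptions.

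The members, sub-groups and gene lists were chosen with earlier results of these data known. The named probe sets were every called member, in each sub-group the highest, lowest and brightest, genes with several probe sets, duplicate pairs and, of the other splicing genes, those called. Members named beyond these were chosen after their values were seen. Alternatives were other scalings, a pseudocount of 1, no filter, no variance trend, a doubled wild-type SD, leaving out each foggy array, the brightest probe set of each gene and updated symbols.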

Additional observations from a re-analysis of the deposited data

How the results depend on the processing

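All 3 called differences kept their sign in each alternative tried, but in most of these the sign could not change. No filter, no variance trend and the doubled wild-type SD leave a difference as it was. At the 3 called probe sets every foggy array lay on one side of the wild type, so leaving out 1 could not reverse it. No paired analysis was possible because wild type had only 1 array. Over all probe sets, 256 higher and 341 lower calls came to 129 higher with no filter on dim probe sets, 27 and 137 with no variance trend, 3 and 44 with the wild-type SD doubled, and 213 to 1179 higher and 344 to 866 lower when 1 foggy array was left out. The 1 higher and 2 lower calls among splicing and hnRNP probe sets came to 2 higher under quantile normalization and 4 lower under cyclic loess. They came to 0 and 0 in limma with no variance trend (3 higher and 3 lower at an unadjusted p under 0.05) and to 0 and 0 with the wild-type SD doubled (1 and 2). Leaving out 1 foggy array gave 1 to 12 higher and 2 to 6 lower, the most without foggy array 1, where 21.7% of the 83 were called beside 18.8% of all tested probe sets. The SD of log2 differences was 0.158 between foggy arrays 2 and 3, and 0.196 and 0.192 between foggy array 1 and each of them. Among other splicing genes, 8 higher and 1 lower came to 3 higher with no filter, 2 lower under quantile normalization and 2 under cyclic loess, 0 and 0 in limma with no trend (16 and 3 unadjusted) and with the doubled SD (8 and 1), and 4 to 24 higher and 1 to 9 lower without 1 foggy array. The median over the 83 moved to 0.013 under cyclic loess and lay at 0.031 to 0.057 without 1 foggy array. Cyclic loess gave sub-group medians of 0.011 (snRNP), 0.0075 (U2AF), 0.065 (PRPF), 0.049 (SR) and -0.065 (hnRNP). The SF3 median was 0.096 under quantile normalization, 0.10 with a pseudocount of 1, 0.069 with no filter, 0.058 with the brightest probe set of each gene and 0.0055 to 0.14 without 1 foggy array. Those of U2AF were 0.060 under quantile normalization and 0.026 to 0.046 without 1 foggy array, and that of PRPF was 0.063 to 0.097. Of the 83 differences, 16 turned sign in at least 1 alternative, and 0 of these were called in the main setting. Besides those of snrpb, snrpd3, snrpg, sf3a3, sf3b6, prpf31, srsf4 and hnrnpa1b, they turned under cyclic loess at u2af2b (-0.0066), prpf38a (-0.0016) and srsf6b (-0.0056), under quantile normalization at hnrnpa0b (0.0078), and without 1 foggy array at sf3a2 (-0.031 to 0.21), prpf38a (-0.091 and -0.012), hnrnpa0b (-0.056 to 0.026), hnrnpabb (-0.025 to 0.0051) and hnrnpub (-0.074 to 0.023). The cause of these shifts was not tested.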
